A study of Mus musculus with 3 samples.

Results

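Zinc finger genes with the mouse symbols Zfp600 to Zfp999 were examined in E8.75 mouse embryos. The members were defined by symbol, through the RefSeq accession of a probe or the gene name deposited by the authors. This set of symbols was chosen with earlier results of these data known, so its counts and medians are descriptions. The array held 244 probes for 153 such genes, among 35505 genes and other transcripts in all, and 145 of them passed the filter on dim probes described with the processing. The 8 that did not pass were Zfp616, Zfp735, Zfp740, Zfp775, Zfp827, Zfp831, Zfp853 and Zfp872. Zfp607a was included through its older deposited name. Of the tested members, 138 were well above background in both channels on all 3 arrays and none was saturated, and Zfp651, Zfp697, Zfp750 and Zfp987 were too dim in Cy5 to stand well above background on any array.

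Each of 3 two-colour Agilent arrays held RNA labelled Brpf1-deficient in Cy5 and RNA labelled wild type in Cy3, as pairs 1 to 3. Both RNAs were total RNA from untreated mouse embryos of the same day, and the labels give neither the strain, the allele of Brpf1 nor the number of embryos behind an RNA. The p-values thus rest on the spread of 3 pairs, which may in part be technical. Each value is a loess-normalized log2 ratio, Cy5 over Cy3, so a negative value is less signal in the channel labelled Brpf1-deficient. This sign is opposite to that of the authors' deposited table, which runs as Cy3 over Cy5. The dyes were not swapped on any array, so an effect of dye and one of genotype cannot be told apart. In whole embryos, fewer cells of a type and less RNA per cell cannot be told apart either.

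Many genes with these symbols encode KRAB zinc finger proteins, a large and fast-evolving family of transcription factors in tetrapods. Their arrays of C2H2 fingers bind DNA, often within transposable elements, and the KRAB domain recruits TRIM28, which brings the H3K9 methyltransferase SETDB1 and heterochromatin protein to the bound site. The genes lie in clusters that arose by repeated local duplication, so that neighbours can be close paralogues. Other genes with such symbols, such as Zfp703 and Zfp706, carry zinc fingers but no KRAB domain.

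The lowest log2 ratios lay in a cluster on chromosome 4, and the promoters of most of its genes resembled each other. Members are called a cluster here where at least 3 lie on 1 chromosome with neighbouring gene starts at most 1 Mb apart, and 17 clusters were found. The RefSeq promoter table of GRCm38.p6 held an entry for 134 of the 153 members, Zfp992 of the chromosome 4 cluster not among them. The longest stretch shared before the gene start by at least 7 members of the cluster was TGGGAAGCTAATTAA, of 15 bases, sought after the sequences and the values had been seen. It was then searched on both strands of all 32851 promoters of 300 bases. It occurred in 12 of them (0.0365%), and all 12 lay on chromosome 4 with the stretch on the strand of the gene. Windows of 60 bases around it follow for 7 members and for Rex2 and Zfp534, zinc finger genes of the same cluster with other symbols, to show how alike these stretches are. The 15 bases stand in capitals, and all coordinates are those of GRCm38.p6.
Zfp979, chr4:147642608-147642667, minus strand: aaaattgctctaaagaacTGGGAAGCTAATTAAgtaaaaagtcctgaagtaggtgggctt
Zfp600, chr4:146156674-146156733, plus strand: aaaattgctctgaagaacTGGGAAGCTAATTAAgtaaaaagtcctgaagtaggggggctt
Rex2, chr4:147021697-147021756, plus strand: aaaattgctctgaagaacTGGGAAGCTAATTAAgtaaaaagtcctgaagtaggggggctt
Zfp982, chr4:147492248-147492307, plus strand: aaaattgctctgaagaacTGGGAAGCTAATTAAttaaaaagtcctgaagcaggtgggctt
Zfp987, chr4:146097143-146097202, plus strand: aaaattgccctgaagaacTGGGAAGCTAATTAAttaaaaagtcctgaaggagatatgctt
Zfp985, chr4:147553123-147553182, plus strand: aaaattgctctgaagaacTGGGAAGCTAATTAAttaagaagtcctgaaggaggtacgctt
Zfp534, chr4:147702696-147702755, minus strand: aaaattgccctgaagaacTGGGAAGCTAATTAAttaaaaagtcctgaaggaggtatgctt
Zfp981, chr4:146514738-146514797, plus strand: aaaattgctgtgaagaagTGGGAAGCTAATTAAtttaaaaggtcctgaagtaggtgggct
Zfp984, chr4:147809901-147809960, minus strand: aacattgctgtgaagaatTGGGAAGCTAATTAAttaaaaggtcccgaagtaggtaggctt

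Over the 250 bases before the gene start, the promoter of Zfp600 was 94.1% identical to that of Zfp979 and that of Zfp982 83.5%. The identity to Zfp979 was 81.2% for Zfp985, 80.7% for Zfp987, 72.2% for Zfp981 and 68.4% for Zfp984. The 127 members without the 15 bases lay between 36.2% and 53.2%, with a median of 48.1%. Among the 9 promoters shown, the 36 pairwise identities ran from 56% to 99.2% with a median of 75%. The 250 bases before Zfp979, the lowest member, and before Zfp933, the highest member of the cluster, are given whole for comparison. Zfp933 lies in the same cluster but its promoter lacks the 15 bases. In the Zfp979 sequence capitals mark the 15 bases and TATTGGGCG, the next longest shared stretch that holds all 4 bases and does not overlap the first.
Zfp979, chr4:147642509-147642758, minus strand: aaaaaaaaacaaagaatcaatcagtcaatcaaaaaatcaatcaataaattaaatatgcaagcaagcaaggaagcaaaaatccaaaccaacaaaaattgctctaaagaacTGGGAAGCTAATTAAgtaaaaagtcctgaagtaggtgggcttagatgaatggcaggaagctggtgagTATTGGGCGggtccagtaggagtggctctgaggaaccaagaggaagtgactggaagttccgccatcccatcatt
Zfp933, chr4:147848419-147848668, minus strand: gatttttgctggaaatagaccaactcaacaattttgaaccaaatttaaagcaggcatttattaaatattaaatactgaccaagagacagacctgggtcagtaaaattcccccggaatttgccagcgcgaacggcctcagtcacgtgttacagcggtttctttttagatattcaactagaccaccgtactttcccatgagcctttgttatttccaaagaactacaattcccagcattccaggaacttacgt

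All 10 genes with the 15 bases that were tested had a mean log2 ratio below 0, against 54.7% of all genes. They were the 7 members shown, Rex2, Zfp534 and Gm13212, and their median was -0.55, with a range of -0.76 to -0.36. The 120 tested members with a promoter that lacked the 15 bases had a median of -0.10. The stretch was taken from the 7 members after their values had been seen. The difference thus follows in part from that choice and is a description only. The second stretch was less particular. It was found in 39 promoters (0.119%) of 34 genes, 27 of which were tested, with 18 below 0 and a median of -0.18. The 27 include all 10 tested genes with the 15 bases, so this count and median in part repeat theirs. Tested genes with the second stretch alone included Zfp947 at 0.05, Zfp994 at -0.17 and the ribosomal protein gene Rpl10 at 1.05. A shared stretch is a description of these windows, and the paralogues share far more sequence than it. The sequences of the array's probes were not used here, so whether a probe of 1 of these genes also captures RNA of another was not tested.

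**Figure D1:**
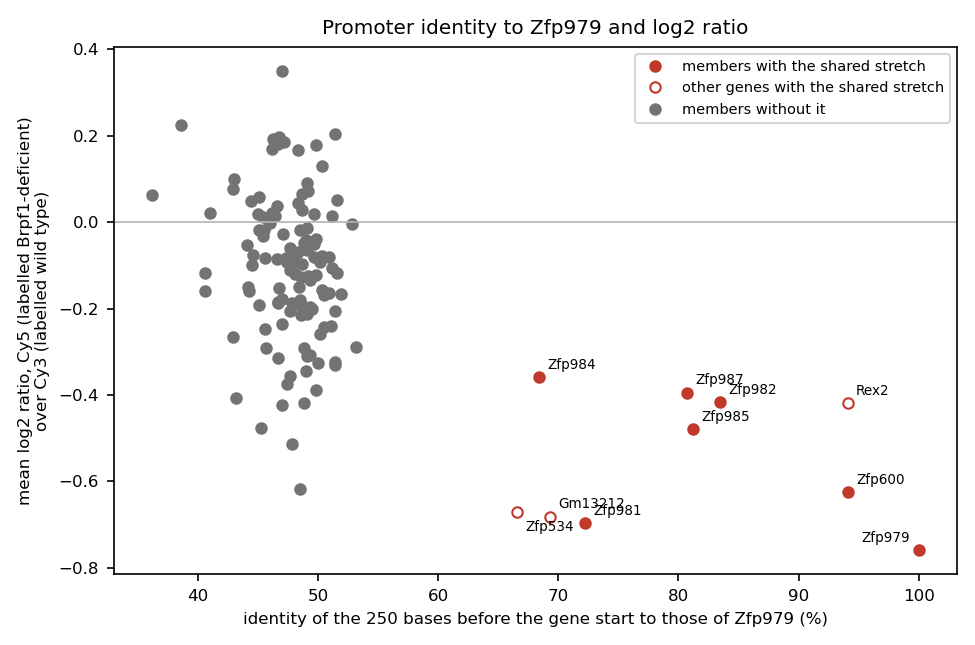
Identity of the 250 bases before the gene start to those of Zfp979 (x axis, percent) against the mean log2 ratio (Cy5 over Cy3, y axis), 1 point a gene. The 120 grey members lie at or below 53.2% identity on both sides of 0, and the 10 red genes with the shared stretch lie at or above 66.6% identity and between -0.76 and -0.36.

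In the chromosome 4 cluster all 9 members were lower in Cy5 in each of the 3 pairs, with a median log2 ratio of -0.48 over the pairs. The cluster medians were -0.49, -0.76 and -0.39 in pairs 1, 2 and 3. The share of all 22780 genes tested that was lower in all 3 pairs was 23.6%. At an unadjusted p below 0.05, 8 of the 9 were lower, against 9.01% of all genes. Past the adjusted threshold of 0.05 over all genes (1.38% of them, 0.0966% lower and 1.28% higher) stood 1 member, Zfp979, which was lower in Cy5.

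Zfp979, also known as Ssm1b, is a mouse KRAB zinc finger gene named for a strain-specific modifier of transgene methylation. Its log2 ratios were -0.74, -0.84 and -0.70 in pairs 1, 2 and 3. All 3 were close together, averaging -0.76 ± 0.08 (SE over 3 pairs; adjusted p = 0.0291 in limma), or 1.69-fold lower. Its raw spot intensities were 7392, 4010.5 and 5975 in Cy5 and 6894, 6394.5 and 5909 in Cy3. Raw Cy5 intensities were in general above those of Cy3, with array medians of 220 to 243 against 134 to 144.5, and the loess step takes this out. A second, dimmer probe of Zfp979 gave -0.53, 0.13 and -0.85, so that its pair 2 lay on the other side of 0. With the mean of its probes, Zfp979 had -0.59 and did not pass the threshold, and it lost the call in 9 of 12 reanalyses of the scanner files.

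Zfp981 had log2 ratios of -0.61, -0.92 and -0.56 in pairs 1, 2 and 3 (mean -0.70 ± 0.10 SE; limma adjusted p = 0.0633). A dimmer probe of the gene averaged -0.17. Zfp600 had -0.66, -0.84 and -0.37 (mean -0.62 ± 0.11 SE; adjusted p = 0.109) on its single probe. Both genes were lowest in pair 2 and least low in pair 3. The same order held for Zfp992, with -0.49, -0.79 and -0.39 (mean -0.56 ± 0.11 SE; adjusted p = 0.118), and its second probe averaged -0.40. Zfp985 had -0.35, -0.76 and -0.34, a mean of -0.48 ± 0.12 (SE; adjusted p = 0.171).

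Zfp982, known in mouse as a gene expressed in embryonic stem cells, had the most even values of the cluster. Its log2 ratios were -0.41, -0.37 and -0.47 (mean -0.42 ± 0.08 SE; limma adjusted p = 0.116). Zfp984 had -0.27, -0.60 and -0.20, a mean of -0.36 ± 0.11 (SE; adjusted p = 0.223), while its second probe gave -0.16, 0.27 and -0.41. Zfp987 did not stand well above background in Cy5 in any pair. Its log2 ratios of -0.57, -0.14 and -0.47 (mean -0.39 ± 0.11 SE; adjusted p = 0.209) therefore rest on a Cy5 signal near background. Zfp933, at the end of the cluster, had -0.14, -0.00 and -0.10, a mean of -0.08 ± 0.08 (SE; adjusted p = 0.627), and its second probe of similar brightness gave -0.42, -0.39 and -0.38. The probes of Zfp933 thus gave different sizes on 1 side of 0.

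The other genes within the cluster were lower in all 3 pairs as well. Zfp534 had log2 ratios of -0.70, -0.81 and -0.51 in pairs 1, 2 and 3 (mean -0.67 ± 0.09 SE; limma adjusted p = 0.055). Rex2 had -0.32, -0.80 and -0.14 (mean -0.42 ± 0.14 SE; adjusted p = 0.256), but stood well above background in Cy5 on 1 array only. The transcript 4933438K21Rik had -0.30 ± 0.08 (SE; adjusted p = 0.205). It was dim as well, with a mean log2 intensity of 7.37 against 7.57 for Rex2. Gm13212, which lies just outside the members' cluster and carries the 15 bases, had -0.70, -0.88 and -0.46 (mean -0.68 ± 0.11 SE; adjusted p = 0.0769), and was named after its values were seen.

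**Figure D2:**
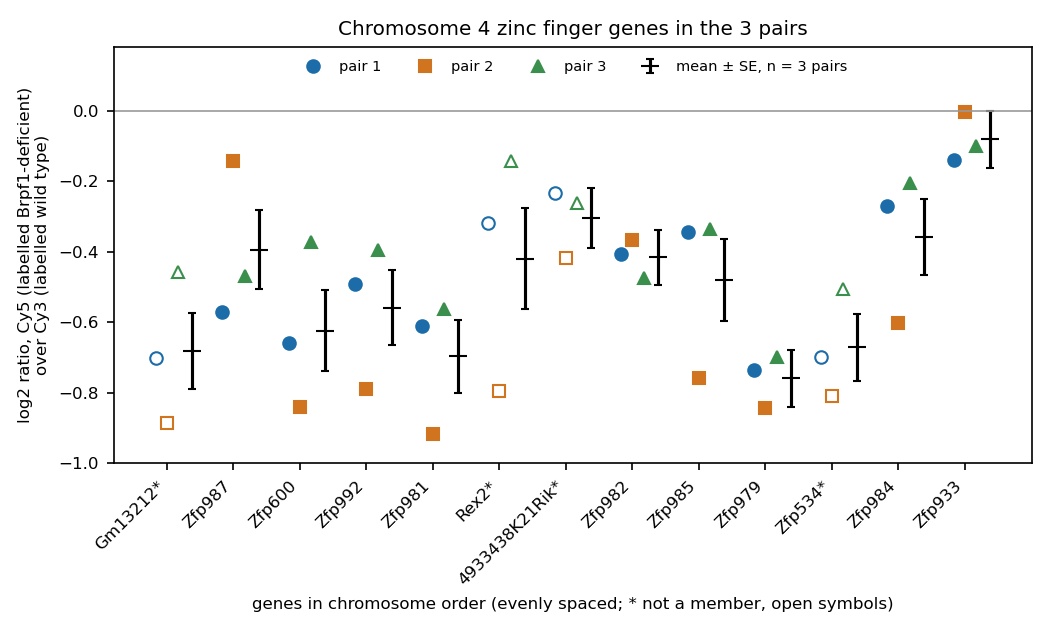
Log2 ratio of Cy5 over Cy3 (y axis) in pairs 1, 2 and 3 for genes in and just beside the chromosome 4 cluster. Genes stand in chromosome order (x axis, evenly spaced), with the mean and its moderated SE over 3 pairs at the right of each gene. Filled symbols are the 9 members. Open symbols are 4 other genes, among them the transcript 4933438K21Rik and Gm13212, which lies just outside the cluster. Every point lies below 0, those of Zfp933 nearest to it.

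The members as a whole were shifted slightly below all genes. Their median log2 ratio was -0.12, against -0.02 over the 22780 genes tested, and -0.08, -0.19 and -0.10 in pairs 1, 2 and 3. Of the 145 members, 112 (77.2%) had a mean below 0, against 54.7% of all genes. Lower in all 3 pairs were 64 members (44.1%), against 23.6% of all genes, and 11 were higher in all 3, against 19.5% of all genes. At an unadjusted p below 0.05, 31 members (21.4%) were lower, against 9.01% of all genes, and 1 was higher, against 8.2% of all genes. The shift was not particular to the high numbers. The 186 tested Zfp genes numbered below 600 had a median of -0.11, 74.7% of them were below 0, and none passed the adjusted threshold in limma. Of these 186, 28 (15.1%) were lower and 4 were higher at an unadjusted p below 0.05. At the lower limit of the symbols, Zfp600 had -0.62 and Zfp599 -0.12.

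By number, the median log2 ratio was -0.13 for the 40 genes Zfp600 to Zfp699, -0.10 for the 36 genes Zfp700 to Zfp799 and -0.07 for the 23 genes Zfp800 to Zfp899. It was -0.16 for the 46 genes Zfp900 to Zfp999, and -0.12 for the 38 of these outside the chromosome 4 cluster. Without that cluster, the remaining 136 members had a median of -0.10, and 75.7% of them were below 0. The 54 members outside any cluster also had a median of -0.10. The spread of a member over the pairs, highest minus lowest, had a median of 0.27, against 0.30 for all genes, so most single members did not stand clear of the pair-to-pair spread.

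**Figure D3:**
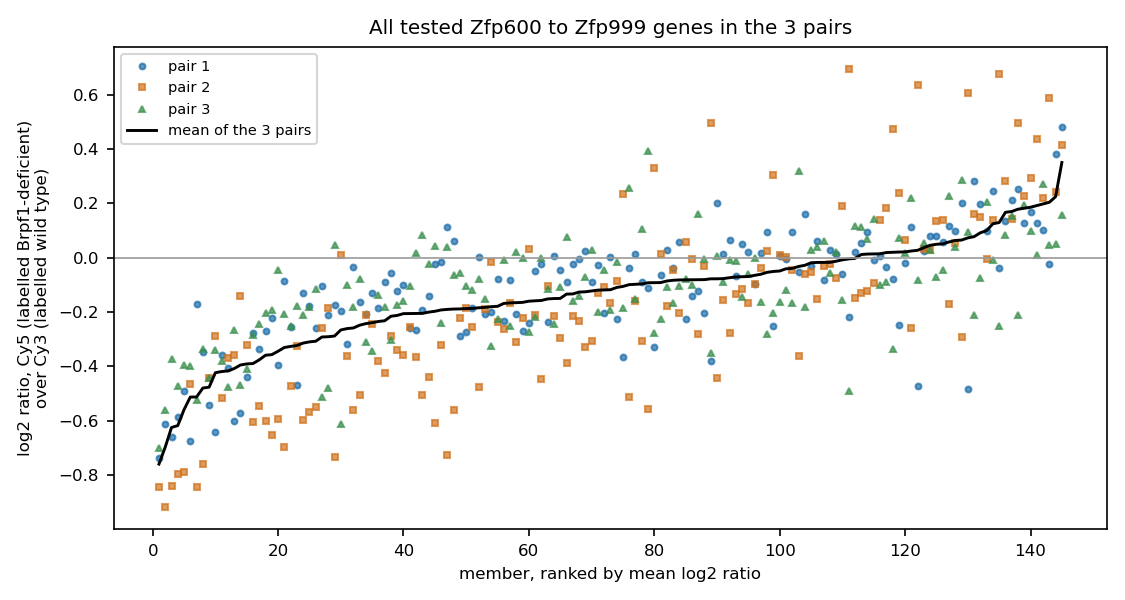
Log2 ratio of Cy5 over Cy3 in each pair (symbols, y axis) for the 145 tested members, ranked by their mean (line, x axis). The line crosses 0 after 112 members, and the pairs of 1 member lie up to 1.18 apart.

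Next lowest after chromosome 4 was a run of 8 members on chromosome 7, Zfp788 to Zfp819, with a median log2 ratio of -0.27. Its lowest member, Zfp936, had -0.54, -0.44 and -0.44 (mean -0.48 ± 0.08 SE; limma adjusted p = 0.0851). Zfp976, the brightest of all members, had -0.60, -0.36 and -0.26 (mean -0.41 ± 0.10 SE; adjusted p = 0.172). The probes of both genes differed. A dim probe of Zfp936 (mean log2 intensity 7.47) averaged 0.11, and a second probe of Zfp976, not dim at 10.45, averaged -0.22. Zfp975, singled out after its values were seen because 5 of its probes passed, gave means of -0.44 to -0.34 on these probes. The highest of the run was Zfp715 at 0.05 ± 0.09 (SE). Zfp819, which acts in genome stability of mouse pluripotent cells, had -0.05, -0.36 and 0.32. The 8 other genes tested within this run had a median of 0.01.

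The largest cluster held 13 members on chromosome 17, Zfp677 to Zfp945, with a median of -0.15, and 12 of them were below 0. Zfp995 was its lowest, with log2 ratios of -0.59, -0.79 and -0.47 (mean -0.62 ± 0.10 SE; limma adjusted p = 0.0732). This came from a very bright probe, and its dimmer probe averaged -0.07. The highest, Zfp947, had 0.05 ± 0.08 (SE). Of a second chromosome 17 run of 6 members, Zfp871 to Zfp763, the lowest was Zfp799 at -0.33 ± 0.14 (SE) and the highest Zfp871 at 0.02 ± 0.12 (SE).

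On chromosome 8, Zfp930 stood apart from its 4 neighbours. It had log2 ratios of -0.67, -0.47 and -0.40 (mean -0.51 ± 0.09 SE; limma adjusted p = 0.105), while the cluster median was -0.08 and Zfp866 was its highest at 0.04 ± 0.08 (SE). As with Zfp995, the value rests on a bright probe, and the dimmer probe of Zfp930 averaged -0.11. The other chromosome 8 cluster, Zfp709 to Zfp961, had a median of -0.10 between Zfp617 at -0.23 ± 0.09 and Zfp709 at -0.00 ± 0.09 (SE). Without loess, with each array centred on its median only, the 4 brightest members moved toward higher values. Zfp995 then had -0.39, Zfp976 -0.13, Zfp658 0.17 and Zfp706 0.21, while Zfp979 had -0.85.

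On chromosome 13, Zfp934 led a cluster of 3, with -0.44, -0.32 and -0.41 (mean -0.39 ± 0.08 SE; limma adjusted p = 0.133). Its neighbour Zfp808 was far apart between the pairs, at -0.38, 0.50 and -0.35. Zfp808 was 1 of 15 members (10.3%) above 0 in pair 2 and below 0 in pairs 1 and 3, the pattern of 10.2% of all genes. In the other chromosome 13 cluster of 6, the lowest was Zfp708, which binds RMER19B retroelements in mouse, at -0.31 ± 0.11 (SE; adjusted p = 0.271). The highest was Zfp738 at 0.20 ± 0.08 (SE; adjusted p = 0.314).

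On chromosome 9 all 3 tested members had a mean below 0. Zfp810 was the lowest at -0.31 ± 0.12 (SE), and the highest was Zfp809, which silences retroviruses through their proline tRNA primer binding site in mouse. Zfp809 had log2 ratios of -0.07, -0.13 and -0.01, a mean of -0.07 ± 0.08 (SE; limma adjusted p = 0.668), and a dimmer probe averaged 0.11. It did not stand clear of the spread between pairs.

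Medians of the remaining clusters lay between -0.18 and 0.08. Just 3 clusters had a median above 0, on chromosomes 2, 6 and 7. With median centring those on chromosomes 2 and 6 had -0.10 and -0.03, and each of the 3 was below 0 in at least 1 reanalysis that left out a pair. In the chromosome 2 cluster Zfp972 was lowest at -0.21 ± 0.08 and Zfp971 highest at 0.07 ± 0.21 (SE), with Zfp971 at -0.48, 0.61 and 0.10 in the pairs. In the chromosome 6 cluster Zfp777 was highest at 0.22 ± 0.10 (SE; limma adjusted p = 0.325). Its lowest was Zfp746, known as PARIS and a substrate of the ubiquitin ligase parkin, at -0.10 ± 0.16 (SE). The cluster Zfp628 to Zfp784 on chromosome 7 had a median of 0.06, with Zfp628, needed for spermatid development in mouse, at 0.19 ± 0.11 and Zfp865 at 0.02 ± 0.12 (SE).

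The other extremes showed no larger values. On chromosome 7 these were Zfp607a (-0.13) and Zfp974 (-0.19), Zfp773 (-0.19) and Zfp667 (0.02), and Zfp747 (-0.22) and Zfp668 (0.17). On chromosome 10 they were Zfp781 (-0.19) and Zfp873 (0.01), and on chromosome 15 Zfp647 (-0.21) and Zfp707 (-0.07). None of these 10 passed an unadjusted p of 0.05. A second probe averaged 0.02 for Zfp747 and 0.17 for Zfp707.

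**Figure D4:**
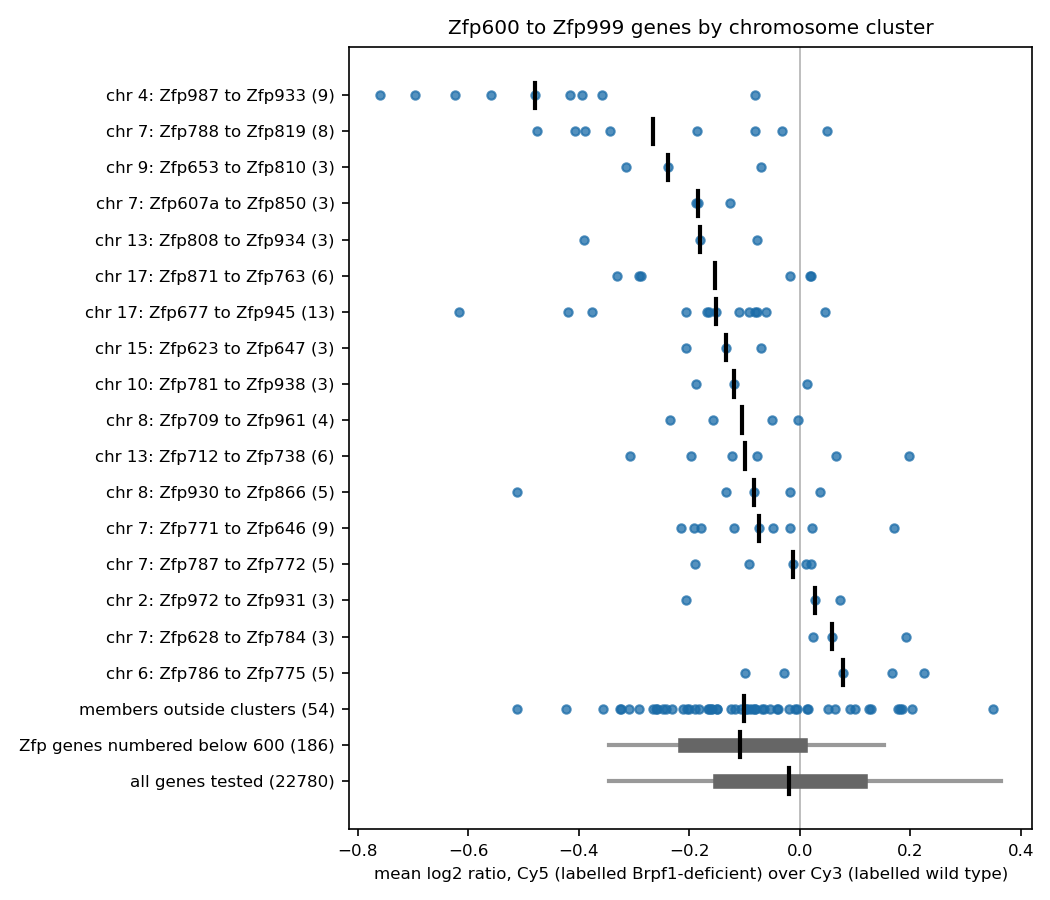
Mean log2 ratio of Cy5 over Cy3 (x axis) of each tested member (points) by chromosome cluster, with cluster medians as black bars and the number tested in brackets. Grey bars give the 5th to 95th (thin) and 25th to 75th (thick) percentiles of Zfp genes numbered below 600 and of all genes, and the chromosome 4 cluster lies lowest, with a median of -0.48.

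Higher members were few and small in size. Zfp691 had the highest mean, with log2 ratios of 0.48, 0.41 and 0.16 (mean 0.35 ± 0.10 SE; limma adjusted p = 0.208), and was the 1 member higher at an unadjusted p below 0.05. Zfp622, whose human counterpart acts in assembly of the large ribosomal subunit, had 0.19 ± 0.08 (SE; adjusted p = 0.34). Zfp655 had 0.18 ± 0.08 (SE; adjusted p = 0.323), and its other passed probes averaged 0.44 and 0.14. All 3 genes were above 0 in every pair.

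Members with better-known roles were mostly near 0. Zfp932, a repressor of endogenous retroviruses in mouse, had log2 ratios of 0.06, 0.14 and -0.05. Zfp661, which acts at protocadherin genes in mouse, had -0.21, -0.21 and -0.31 (mean -0.24 ± 0.08 SE; limma adjusted p = 0.244), and both of its probes lay below 0. Zfp961 had -0.16 ± 0.12 (SE), and its dimmer probes lay above 0.

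Among members outside the retroelement repressors, Zfp644, whose human counterpart partners the H3K9 methyltransferases G9a and GLP, had -0.25 ± 0.11 (SE; limma adjusted p = 0.336). Zfp706, linked to exit from self-renewal in mouse embryonic stem cells, had -0.01 ± 0.10 on a bright probe. Zfp703, a corepressor of the NET family, had 0.12 ± 0.09 and Zfp704 -0.18 ± 0.08. A dimmer probe of Zfp704 averaged 0.14, and the mean of its probes was -0.02. The dimmest probe of Zfp644 averaged 0.13, and the mean of its 3 probes was -0.11. Zfp830, needed for survival of the early mouse embryo, had -0.08 ± 0.09, Zfp687 -0.15 ± 0.09 and Zfp800 -0.04 ± 0.09 (all SE). Zfp750, a regulator of epidermal differentiation, did not stand well above background in Cy5 either, and its log2 ratios of -0.19, -0.50 and 0.08 lay on both sides of 0. None of these 8 passed the adjusted threshold.

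Most genes of a broad list around the KRAB corepressors had a mean below 0 too. All 29 genes of this list of KRAB corepressor machinery were tested, and 23 were below 0, with a median log2 ratio of -0.15 against -0.02 over all genes. The list also holds general chromatin and DNA-binding factors, such as Ctcf (-0.26), Nsd1 (-0.23) and Zbtb7a (-0.10). The counts are thus not those of KRAB partners alone. None was called in either direction by limma after adjustment. At an unadjusted p below 0.05, 9 (31.0%) were lower, against 9.01% of all genes, and none was higher. Lower in all 3 pairs were 16 (55.2%), against 23.6% of all genes. Trim28, the corepressor that KRAB domains bind, had log2 ratios of 0.02, -0.35 and -0.06 (adjusted p = 0.544). Setdb1 had -0.22 ± 0.08 (SE; adjusted p = 0.281), and Atrx, a chromatin remodeller that acts at heterochromatin, was lowest at -0.39 ± 0.09 (SE; adjusted p = 0.167). The lean below 0 was not particular to this list. Of 24 tested genes of 29 listed as other repressors of retroelements and imprints, 19 (79.2%) were below 0. Their median was -0.09, and 1 gene passed the adjusted threshold, higher in Cy5. This was Tex19.1, a germline and placental gene that protects against retrotransposons, at 1.08 ± 0.08 (SE; adjusted p = 0.0226).

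Other measurements bear on how these ratios are read. Brpf1 itself was higher in the channel labelled Brpf1-deficient, at 2.01, 1.43 and 1.06 in pairs 1, 2 and 3 (mean 1.50 ± 0.19 SE; limma adjusted p = 0.0402). No other gene of the 9 listed for its acetyltransferase complex was called. The direction of Brpf1 is thus opposite to the label unless the probe lies outside the disrupted part, and no direction is assigned to a genotype here. The Y-linked gene Ddx3y had 5.92, -0.23 and -5.23, so Y-linked RNA differed between the channels of pairs 1 and 3, in opposite ways. The X-linked gene Xist had -0.04, 0.29 and 2.69. In pair 1 the raw Cy5 intensity was 8184.5 for Ddx3y and 2465 for Xist, so that RNA gave signal for both. The dimmer Y-linked gene Uty had 1.09, 0.85 and -1.50, and the part of Y-linked differences in the members' ratios was not tested. All 12 yolk sac and visceral endoderm markers had a mean above 0, with medians of 0.18, 0.56 and 0.54 in the pairs, and 5 of 12 embryo markers were below 0. Of the listed markers, Apoc2 (1.16 ± 0.12 SE; adjusted p = 0.0291) and Hbb-bh1 (1.28 ± 0.16 SE; adjusted p = 0.0415) rose in Cy5 and Myh6 (-0.70 ± 0.08 SE; adjusted p = 0.0309) fell. Medians of the 10 decidua markers were -0.26, -0.33 and 0.43, and those of 7 trophoblast markers, of 11 listed, -0.29, -0.05 and 0.47. Single markers lay further from 0 than these medians. The decidua marker Prl8a2 had -0.74, -3.55 and 0.60, with raw intensities in pair 2 of 3229 in Cy5 and 32432 in Cy3. Over the pairs the decidua marker Lum ran from -0.99 to 0.87 and the trophoblast marker Prl3d1 from -1.19 to 2.35. The decidua marker Angpt4 lay above 0 in every pair, at 0.47, 0.67 and 0.63. Summed raw intensities of the yolk sac list were 1070000 to 1830000 in Cy5 and 424000 to 520000 in Cy3, and those of the decidua list 53400 to 116000 in Cy5 and 42900 to 78100 in Cy3. The decidua marker Adamts5 stood well above background in Cy5 on 1 array only, and the other tissue markers tested did so in both channels on every array. The trophoblast markers Prl2c2, Tpbpa, Ctsq and Syna were not tested. The part of tissue content in the members' ratios was not tested. 

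The chromosome 4 result kept its direction in every reanalysis of the scanner files. All tested members of the cluster had a mean below 0 under all 12 alternative settings, and the cluster median ranged from -0.57 to -0.44. In the authors' deposited table, turned to Cy5 over Cy3, all 8 listed members of the cluster were below 0 with a median of -0.63. Zfp933, the cluster member nearest to 0 here at -0.08, was not listed, so this median leaves it out. The smallest adjusted p of any listed member was 0.274.

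**Figure D5:**
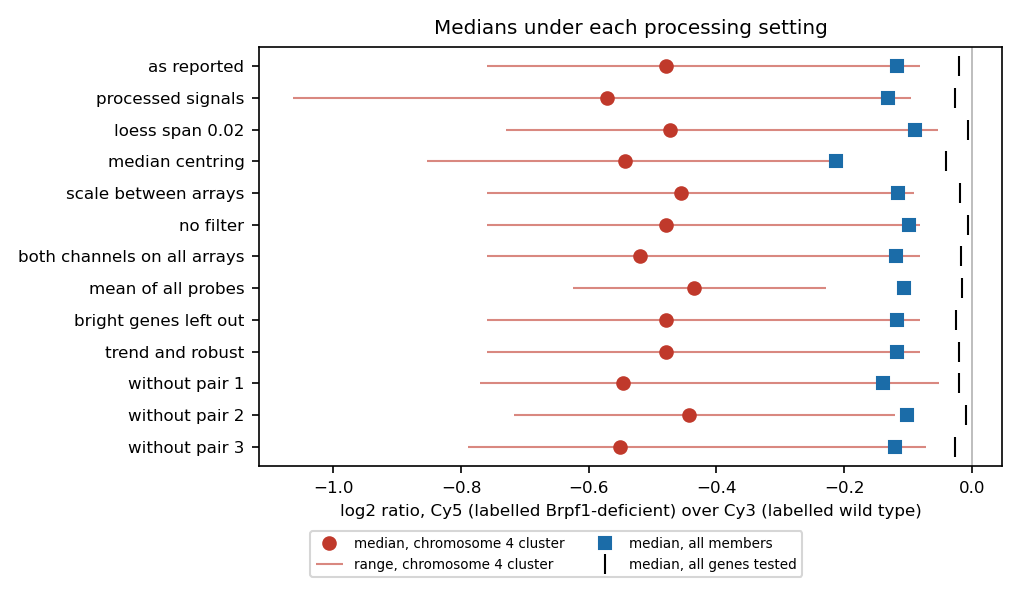
Median log2 ratio of Cy5 over Cy3 (x axis) of the chromosome 4 cluster (circles, with the range of its genes), of all members (squares) and of all genes tested (ticks) under each setting (y axis). The cluster lies below all members, and all members below all genes, in every setting shown.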

How the data were processed

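The arrays were hybridised with RNA amplified once from 350 ng and coupled to Cy dyes, per the labels. The scanner files hold linear intensity values per spot, made with Feature Extraction 10.7.3.1 per the file headers, as median signals with local background, processed signals already corrected for background and dye, and log10 ratios. The authors' deposited table gives log2 ratios and mean log2 intensities, p-values and further scores for 40000 probes, made with limma per the submitters' processing notes. Its ratio correlated at -0.923 with the one computed here over 15703 shared genes.

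Median signals were corrected with normexp (offset 50) and normalized by loess (span 0.3) within each array, with control and outlier spots at weight 0. A probe was kept if well above background on at least 2 arrays in 1 channel, and the brightest probe stood for a gene. Names and gene order came from the GRCm38.p6 RefSeq table (27656 of 29123 accessions matched), other names from the files. In limma 3.58.1 (R 4.3.3; lmFit and eBayes, two-sided) the mean of the pairs was set against 0, with Benjamini-Hochberg adjustment over 22780 genes at 0.05. Of 62 members with several passed probes, 19 had probe means on both sides of 0. For members not well above background in Cy5 no bound is given, since the floor set from the dimmest probes well above background lay below their own signal. Promoters were aligned globally with Biopython 1.88.

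The arrays held 27483 to 28908 probes well above background in Cy5 and 30205 to 33329 in Cy3, and their number limits the precision. All shared 1 slide and 1 scan, so no batch could be tested. In simulated data with 200 changed genes among 22780, the test recovered 26.6% of changes of 0.5 and 97% of changes of 1 on the log2 scale. A median of 14.5 unchanged genes was called as well. The simulated errors were independent and normal, with the moderated spread of the fit, so recovery in the real data may be lower. Members, lists and alternatives were chosen with earlier results of these data known. Named were members past the threshold, the 6 highest and 6 lowest with 1 sign in all pairs, the extremes of each cluster, the 4 brightest and those of known role.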

Additional observations from a re-analysis of the deposited data

How the results depend on the processing

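Processed scanner signals, a loess span of 0.02, scaling between arrays, the mean of all probes, leaving out genes above 17 in mean log2 intensity, a trended robust variance and the authors' table each left 0 members past the adjusted threshold, and leaving out each pair in turn gave 0 to 0. In these settings 0 to 194 of all genes were called, and 16 to 34 members passed an unadjusted p of 0.05 in the refits. Median centring, no filter and a filter on both channels kept 1, Zfp979, whose adjusted p ranged from 0.0208 to 0.365 over all alternatives; these 3 called 326 to 633 genes, against 314 as reported. The members' median was -0.21 with median centring, where that of all genes was -0.04, and -0.17 in the authors' table, which lists 102 members. The tested members it does not list lay near 0 here, from -0.10 (Zfp746) to 0.07 (Zfp971). Its median is thus over a set without these genes. Of 58 named members, 39 kept 1 sign in every setting. The rest lay near 0 and changed sign, and the cause was not tested. With processed signals the log2 ratio was -0.12 for Zfp667, 0.049 for Zfp706, 0.061 for Zfp709, -0.038 for Zfp873 and -0.019 for Zfp971. A span of 0.02 gave 0.077 for Zfp706 and 0.014 for Zfp709. Median centring gave 0.17 for Zfp658, -0.019 for Zfp667, 0.21 for Zfp706, -0.036 for Zfp715, -0.11 for Zfp865, -0.093 for Zfp866, -0.11 for Zfp871, -0.11 for Zfp873, -0.067 for Zfp932 and -0.040 for Zfp947. Scaling gave -0.029 for Zfp667, 0.013 for Zfp709, 0.0039 for Zfp819 and -0.0003 for Zfp871. The mean of all probes gave 0.049 for Zfp707, -0.13 for Zfp715, 0.017 for Zfp809, -0.022 for Zfp865 and 0.0048 for Zfp961. Leaving out each pair in turn gave -0.21 to 0.20 for Zfp667, -0.11 to 0.066 for Zfp706, -0.062 to 0.069 for Zfp709, -0.28 to 0.11 for Zfp746, -0.11 to 0.025 for Zfp800, -0.36 to 0.073 for Zfp808, -0.21 to 0.13 for Zfp819, -0.072 to 0.17 for Zfp865, -0.087 to 0.15 for Zfp871, -0.027 to 0.081 for Zfp873 and -0.19 to 0.35 for Zfp971. Zfp600 and Zfp987, both dim, were -1.06 and -0.93 with processed signals. The reported test is itself paired, of the 3 within-array ratios against 0. No paired analysis was possible beyond it, because each array holds 1 pair and leaves no further block.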

Other observations

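The array also carries probes for noncoding RNA intervals whose names give mm9 coordinates. Between 140 and 150 Mb of chromosome 4, 37 probes of 19 intervals and strands passed the filter. The 3 probes of the interval at chr4:146890596-146891297 had mean log2 ratios of -0.82 to -0.52. The 4 probes of chr4:147105275-147171025 had -0.80 to -0.60. The lowest probe of the other intervals had -0.34, and the 5 probes of chr4:146507925-146532650 had -0.0038 to 0.19. The gene order used for the members is that of GRCm38.p6, so where these intervals lie relative to the zinc finger genes was not determined.

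Of the 145 genes with other symbols tested inside all 17 clusters, 93 (64.1%) had a mean below 0, with a median of -0.07. The ribosomal protein gene Rpl8 on chromosome 15 was the 1 gene of these that was called, higher in Cy5 at 0.85 ± 0.09 (SE, n = 3 pairs; limma adjusted p = 0.0288).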
